A study of Rattus norvegicus with 15 samples.

Results

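The molecular circadian clock was followed through 10 of its genes in rat islets of Langerhans: Arntl, Clock, Per1, Per2, Per3, Cry1, Nr1d1, Nr1d2, Dbp and Tef. They were taken by name as core clock and clock output genes and not by their measured values, though earlier results of these data were known. All 10 were among the 28914 genes of the count table, and all 10 passed the filter on low counts in every comparison. The islets came from Lewis rats 10 weeks after surgery. In 10 rats (Px) 90% of the pancreas had been removed, and 5 rats had a sham operation (Sham), so that all 15 animals shared the strain and the surgical setting. The submitters list an age of 4 to 5 weeks and do not tie it to a stage of the experiment. Each library was polyA RNA from islets, and the number of libraries in each group equals the stated number of rats. The labels give each rat an average blood glucose before tissue collection, with no unit: 88 to 96 in Sham, 104 to 211 in 7 Px rats (lower-glucose Px) and 416 to 464 in the other 3 (higher-glucose Px). The boundary between both Px groups was set at 300, inside the gap in the labels. No source used here gives the time of day at which the islets were taken.

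In the clock, the proteins of Arntl (BMAL1) and Clock pair and bind E-box sequences, where they switch on the Per, Cry, Nr1d, Dbp and Tef genes. PER and CRY proteins then repress that pair, while the REV-ERB receptors encoded by Nr1d1 and Nr1d2 repress Arntl through ROR elements, and DBP and TEF act on D-box sequences. Arntl RNA therefore peaks at the phase of the daily cycle at which Dbp, Nr1d1 and Per RNA is low. In pancreatic islets this clock is known for its part in insulin secretion, and loss of BMAL1 in beta cells impairs glucose tolerance in mice.

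RefSeq promoter windows of assembly GRCr8, the 250 bases before the annotated start, were held for 9 of the 10 genes; Cry1 was not among them. Of these, 3 are printed because each carries an element of a different arm of the loop: a ROR element at Arntl, a D-box and an E-box variant at Per2, and an E-box at Tef. Each sequence runs 5′ to 3′ on the gene's own strand, with the matches in capitals.
Arntl, chr1:176766078-176766327, plus strand: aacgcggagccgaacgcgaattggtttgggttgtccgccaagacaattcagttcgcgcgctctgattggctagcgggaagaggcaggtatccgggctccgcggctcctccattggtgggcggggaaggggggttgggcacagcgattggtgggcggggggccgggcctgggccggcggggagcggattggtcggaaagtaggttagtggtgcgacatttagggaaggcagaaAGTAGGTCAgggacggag
Per2, chr9:99496994-99497243, minus strand: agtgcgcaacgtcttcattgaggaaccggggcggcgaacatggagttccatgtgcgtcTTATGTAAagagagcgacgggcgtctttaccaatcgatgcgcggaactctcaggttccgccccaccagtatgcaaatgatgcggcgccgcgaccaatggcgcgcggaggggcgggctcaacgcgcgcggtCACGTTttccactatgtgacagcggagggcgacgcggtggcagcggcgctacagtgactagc
Tef, chr7:115206577-115206826, plus strand: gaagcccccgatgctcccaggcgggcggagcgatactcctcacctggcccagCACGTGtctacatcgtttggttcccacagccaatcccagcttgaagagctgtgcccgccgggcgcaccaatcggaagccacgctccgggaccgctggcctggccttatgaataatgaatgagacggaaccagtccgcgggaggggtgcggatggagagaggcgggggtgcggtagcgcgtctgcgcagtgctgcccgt
The Arntl match AGTAGGTCA lies 18 to 10 bases before the start. It fits the ROR element ANTNGGTCA, which was found on either strand in 2.05% of all 33469 windows of the same length. In the Per2 window the D-box TTATGTAA lies 192 to 185 bases before the start, and the E-box variant CACGTT 62 to 57 bases before it. Those letters were present in 0.828% and 4.07% of all windows. The Tef window holds the E-box CACGTG 198 to 193 bases before the start, against 5.59% of all windows. A search of both strands for these 4 motifs and for the cyclic AMP element TGACGTCA (1.59% of all windows) found none of them in the windows of Clock, Per1, Per3, Nr1d2 and Dbp. Nr1d1, which is not printed, had matches in separate windows. They were the E-box CACGTG 191 to 186 bases before the start and the E-box variant, on the other strand, 174 to 169 bases before it. A match is a stretch of letters only, and binding was not measured.

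Library totals were 12.2 to 18.4 M counts in Sham, 19.1 to 31.6 M in lower-glucose Px and 22.3 to 33.4 M in higher-glucose Px. Markers of cells other than endocrine cells differed between the groups. Acinar markers took 1.004% to 14.3% of the counts in Sham and 17.8% to 44.4% in Px, and none of the 14 acinar markers was at 0 in all libraries. Summed macrophage markers (12 genes) ranged from 29.7 to 69.0 counts per M (CPM) in Sham and from 709 to 3695 CPM in Px. For fibroblast and stellate cell markers (10 genes) the ranges were 161 to 442 CPM and 1467 to 7290 CPM. The islet label was matched by beta cell markers, of which the 9 in the table summed to 88081 to 191278 CPM in Sham and to 38661 to 80234 CPM in Px. All of these sums differed between Px and Sham in an exact two-sided permutation test over 3003 splits (adjusted p from 0.000888 for beta cell markers to 0.00666 for macrophage markers). Acinar, macrophage and fibroblast marker scores were each entered as a covariate: with the acinar score 3 of the 10 clock genes were called, and with each of the other scores 0 of the 10. Of all 15199 genes tested in Px against Sham, the acinar fit called 3422 higher and 2776 lower. The macrophage fit called 0 of all genes, and the fibroblast fit called 1269 higher and 730 lower. Each of the 12 macrophage and 10 fibroblast markers lay without overlap between Px and Sham. Fits with those 2 scores therefore cannot separate marker level from surgery, and a call lost there does not decide whether a gene changed. The part of the other markers was not tested. In bulk libraries such as these, fewer cells of a type cannot be told apart from less RNA per cell.

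All 10 clock genes were well counted, from 132 reads for Cry1 in a lower-glucose Px library to 3017 reads for Clock in another. Per kilobase of exon, the scale on which different genes can be compared, mean Sham levels were highest for Nr1d2 at 21.0 ± 3.17 CPM per kilobase (SD, n = 5). Clock at 14.3 ± 1.40, Dbp at 13.9 ± 2.01 and Tef at 13.3 ± 1.48 followed and did not differ beyond their spread. Per2 at 9.92 ± 3.01 and Per1 at 9.73 ± 2.51 formed the next pair on that scale. Nr1d1 at 6.32 ± 1.52, Arntl at 5.92 ± 0.909, Per3 at 3.94 ± 1.96 and Cry1 at 3.32 ± 0.695 CPM per kilobase were the lowest. The library ranges of neighbours in this order overlapped. In Px the order began with Dbp at 12.9 ± 2.68, Nr1d2 at 12.1 ± 1.61 and Tef at 10.5 ± 1.24 CPM per kilobase (n = 10), and Clock had moved below Tef at 9.34 ± 0.760.

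**Figure D1:**
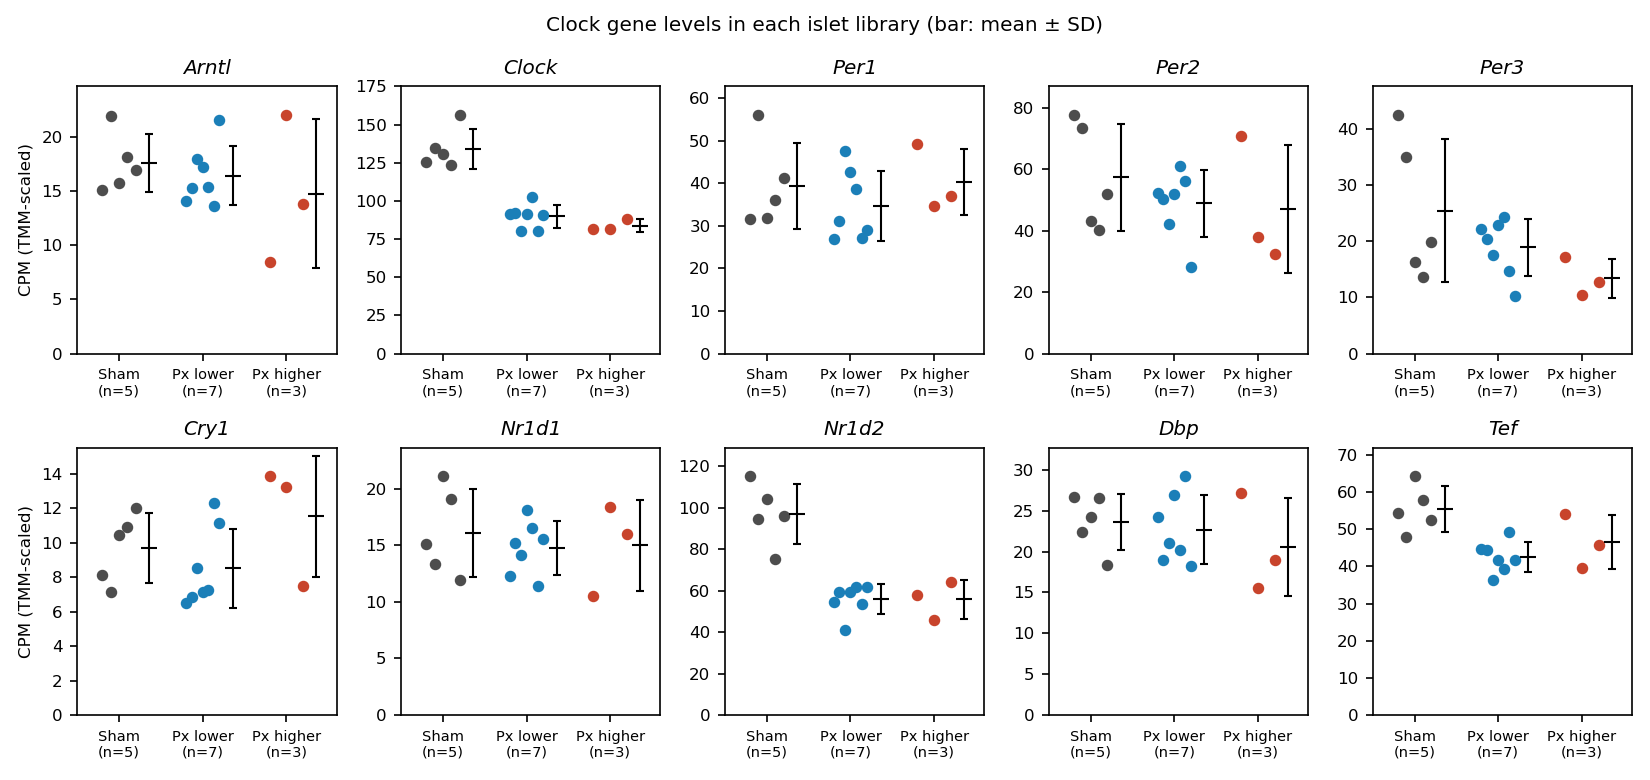
Level of each clock gene in each islet library (points, CPM scaled by TMM; vertical axis from 0), for 5 Sham, 7 lower-glucose Px and 3 higher-glucose Px rats, with the mean and SD as bars. For Clock and Nr1d2 every Px point lies below every Sham point, while for the other 8 genes the groups overlap.

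Px against Sham asks what surgery and its aftermath left in islet RNA after 10 weeks. Of the 10 clock genes, 3 were called lower and 0 higher: Clock, Nr1d2 and Tef (edgeR quasi-likelihood test, Benjamini-Hochberg adjusted over 15199 genes, threshold 0.05). Across all genes tested, 64.7% were called in this comparison, 30.2% of them lower and 34.5% higher as shares of all genes, so that 3 of 10 is a smaller share than the background. The median log2 fold change of the 10 was -0.19, against 0.02 over all genes tested. Levels of Px and Sham did not overlap for 2 of the 10, both lower, while 37.3% of all genes did not overlap and 16.6% lay wholly lower in Px. The signs depend on how libraries were scaled. TMM and library totals put all 10 fold changes below 0. Scaling to 8 endocrine granule genes, which encode proteins of hormone granules, put 7 of the 10 above 0. Those 8 genes were not level between the groups themselves. Under TMM they summed to 12890 to 17412 CPM in Sham and 7474 to 13024 CPM in Px (exact permutation test, adjusted p = 0.00107). By edgeR 4 of the 8 were called lower in Px and 0 higher.

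Of the activators, Clock encodes the histone acetyltransferase partner of BMAL1. Its level in Sham was 126, 135, 131, 124 and 157 CPM, in lower-glucose Px 80.1 to 102 CPM with a median of 91.5, and in higher-glucose Px 81.5, 81.4 and 88.5 CPM. The highest Px library was thus below the lowest Sham library. The mean fell from 134 ± 13.2 CPM (SD, n = 5) to 88.0 ± 7.15 CPM (n = 10), a log2 fold change of -0.60 ± 0.07 (SE; edgeR adjusted p = 2.72e-06). Clock was called in all 15 fits that left out 1 library, and also when the acinar score was a covariate (-0.58, adjusted p = 0.00634). The call was lost with the macrophage covariate (-0.03, edgeR adjusted p = 0.983) and with the fibroblast covariate (-0.69, adjusted p = 0.1003). Scaling to endocrine granule genes gave -0.02 (adjusted p = 0.901).

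Arntl, the partner of Clock in the activating pair, did not pass the test. Sham libraries held 15.1, 22.0, 15.8, 18.2 and 17.0 CPM, lower-glucose Px libraries 13.7 to 21.6 CPM with a median of 15.4, and higher-glucose Px libraries 8.46, 22.1 and 13.8 CPM. The lowest and the highest Arntl level of all 15 libraries were both in higher-glucose Px. The log2 fold change was -0.13 ± 0.17 (edgeR adjusted p = 0.507), and an interval of 2 SE on each side ran from -0.47 to 0.21, with 0.46 under endocrine granule scaling.

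The Period genes, the negative arm together with Cry1, varied more within groups than between them. Per2 stood at 77.8, 73.6, 43.1, 40.2 and 52.1 CPM in Sham, at 28.1 to 61.2 CPM with a median of 52.0 in lower-glucose Px, and at 71.0, 38.0 and 32.5 CPM in higher-glucose Px. Per3 stood at 42.6, 35.1, 16.3, 13.6 and 19.9 CPM in Sham, at 10.2 to 24.3 CPM with a median of 20.5 in lower-glucose Px, and at 17.2, 10.4 and 12.7 CPM in higher-glucose Px. In Sham the same libraries, replicates 23 and 24, were the highest for both genes. The log2 fold change of Per3 was -0.55 ± 0.26 (edgeR adjusted p = 0.0756), and it passed the threshold without Sham replicate 25 (-0.68, adjusted p = 0.0404) or Sham replicate 26 (-0.72, adjusted p = 0.0248). For Per2 it was -0.24 ± 0.21 (edgeR adjusted p = 0.318), with 0.31 under endocrine granule scaling.

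Per1, the Period gene that answers fastest to hormonal and cyclic AMP signals, had 31.6, 56.2, 31.9, 36.2 and 41.2 CPM in Sham. Its lower-glucose Px libraries ranged from 26.9 to 47.5 CPM with a median of 31.2, and the higher-glucose Px libraries had 49.3, 34.8 and 37.0 CPM. The groups overlapped, with a log2 fold change of -0.11 ± 0.17 (edgeR adjusted p = 0.596), which turned to 0.06 without Sham replicate 24 and to 0.48 under endocrine granule scaling. Cry1, a repressor of the BMAL1 and CLOCK pair, had the lowest mean CPM of the members. Per kilobase of exon, Per3 was lower than Cry1 in Px (2.67 ± 0.802 against 3.22 ± 0.989 CPM per kilobase), within their spread. Cry1 was counted at 8.10, 7.12, 10.4, 10.9 and 12.0 CPM in Sham, at 6.50 to 12.3 CPM with a median of 7.22 in lower-glucose Px, and at 13.9, 13.2 and 7.49 CPM in higher-glucose Px. Its log2 fold change was -0.04 ± 0.20 (edgeR adjusted p = 0.875; 2 SE interval -0.45 to 0.37), and under endocrine granule scaling it was called higher at 0.57.

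Of the 2 REV-ERB genes, Nr1d2 alone was called. Nr1d2 (REV-ERB beta) was at 115, 94.6, 104, 75.3 and 95.9 CPM in Sham, at 40.9 to 61.9 CPM with a median of 59.4 in lower-glucose Px, and at 57.7, 45.6 and 63.9 CPM in higher-glucose Px. No Px library reached the lowest Sham library. The mean fell from 97.0 ± 14.6 to 55.9 ± 7.44 CPM, a log2 fold change of -0.79 ± 0.11 (edgeR adjusted p = 8.99e-06) and the largest fall of the 10. The call held in all 15 fits that left out 1 library and with the acinar covariate (-0.84, adjusted p = 0.00679). It was lost under endocrine granule scaling at -0.24 (adjusted p = 0.113), with the macrophage covariate at 0.61 (adjusted p = 0.617) and with the fibroblast covariate at -0.28 (adjusted p = 0.660).

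Nr1d1 (REV-ERB alpha) had 15.1, 13.3, 21.1, 19.1 and 11.9 CPM in Sham, 11.4 to 18.1 CPM with a median of 15.2 in lower-glucose Px, and 10.5, 18.4 and 16.05 CPM in higher-glucose Px. The groups overlapped over most of their range. The log2 fold change was -0.11 ± 0.15 (edgeR adjusted p = 0.533), and under endocrine granule scaling Nr1d1 was called higher at 0.48. Of its exon length, 263 bases (10.3%) overlap exons of Thra, the thyroid hormone receptor alpha gene, on the opposite strand. The library kit is named as directional, but no source used here gives the strand setting of the counting, so reads of both genes may not have been told apart there. Thra itself fell from 35.5 ± 2.94 to 25.1 ± 4.15 CPM, by -0.49 ± 0.11 in log2 (edgeR adjusted p = 0.000869). Whether the change in Nr1d2 was larger than that in Nr1d1 was not tested.

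Of the output factors, Tef encodes a transcription factor of the PAR bZIP family that binds D-boxes, like DBP. Its Sham libraries had 54.3, 47.9, 64.3, 58.0 and 52.4 CPM, its lower-glucose Px libraries 36.4 to 49.1 CPM with a median of 41.8, and its higher-glucose Px libraries 54.0, 39.5 and 45.9 CPM. Only 2 Px libraries, lower-glucose replicate 14 and higher-glucose replicate 13, reached the Sham range. The log2 fold change was -0.33 ± 0.09 (edgeR adjusted p = 0.00399), called in all 15 fits that left out 1 library and with the acinar covariate (-0.58, adjusted p = 0.0139), while endocrine granule scaling turned it to 0.25 (adjusted p = 0.0794). It was also not called with the macrophage covariate (-0.28, edgeR adjusted p = 0.871) or the fibroblast covariate (0.21, adjusted p = 0.659). Dbp, an output gene whose RNA swings widely over the day in many tissues, was at 26.7, 22.4, 24.2, 26.5 and 18.4 CPM in Sham. It ranged from 18.2 to 29.2 CPM with a median of 21.0 in lower-glucose Px and was at 27.2, 15.5 and 18.96 CPM in higher-glucose Px. The groups overlapped, with a log2 fold change of -0.09 ± 0.14 (edgeR adjusted p = 0.573; 2 SE interval -0.38 to 0.19), and endocrine granule scaling called it higher at 0.49.

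A change of scaling shifts all genes by about the same amount, so subtracting the median of all genes tested takes most of that shift out by construction. That median itself was 0.02 with TMM, -0.62 with library totals and 0.61 with endocrine granule scaling. Relative to it, Nr1d2 was at -0.81, -0.83 and -0.85 under these scalings. Clock was at -0.63, -0.61 and -0.63, and Tef was at -0.36, -0.37 and -0.36. Arntl, at -0.16, -0.16 and -0.15, and Dbp, at -0.12, -0.13 and -0.12, were nearer to that median, and Per3 was at -0.58, -0.56 and -0.64. These distances are one measurement written 3 times, not 3 separate ones.

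**Figure D2:**
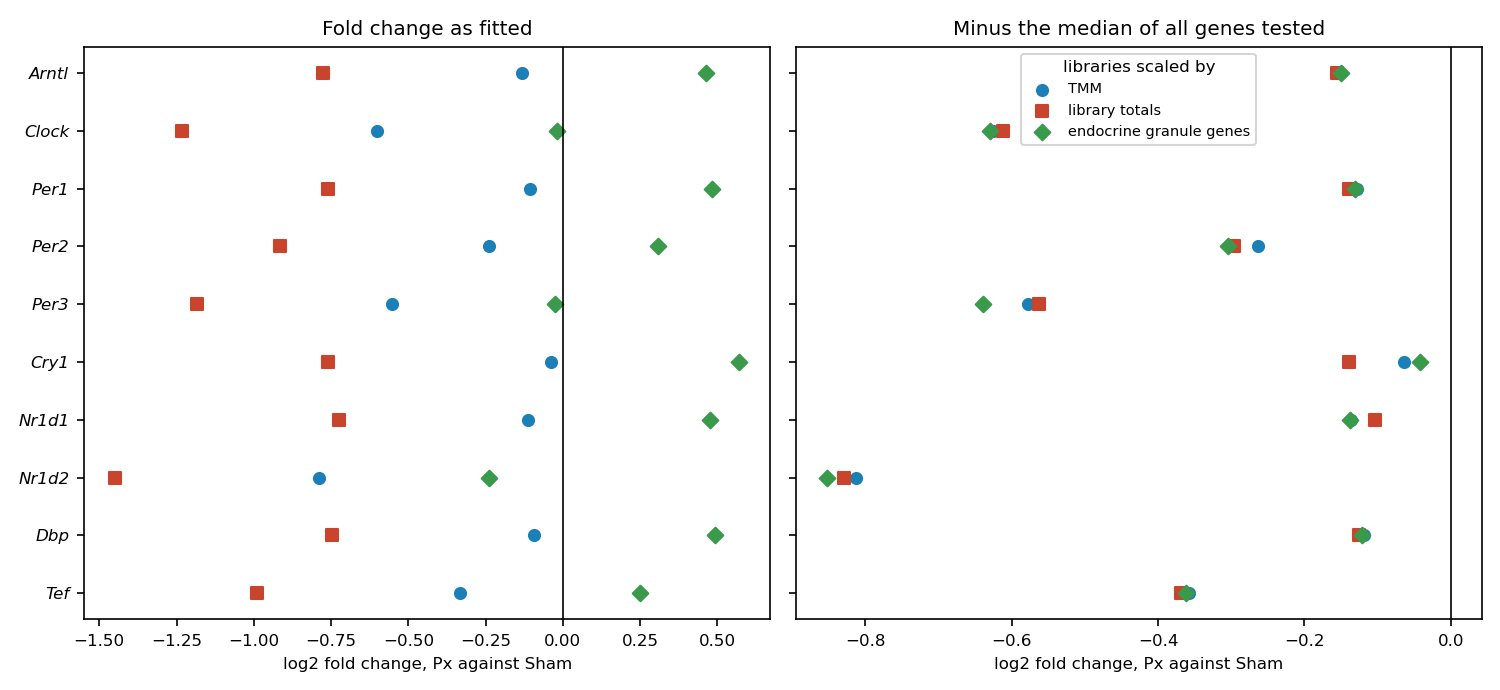
Log2 fold change of Px against Sham for the 10 clock genes under 3 ways of scaling the libraries, as fitted on the left and after subtracting the median of all genes tested on the right. As fitted, the fold changes move together by about the shift of that median (-0.62 with library totals, 0.61 with endocrine granule genes) and 7 of 10 change sign, while on the right the values of each gene lie close together, as subtracting a common shift makes them.

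Other genes of the clock were read from a list of 19 named regulators. Of the 18 tested, 6 were called higher and 8 lower in Px (edgeR, adjusted over all genes), a share of calls that stands beside the 64.7% of all genes. Rorb, encoding an ROR receptor, did not pass the filter on low counts and was not tested. Library totals gave 2 higher and 10 lower, and endocrine granule scaling 10 higher and 3 lower, so that the split between directions depended on the scaling. With the acinar covariate 4 were called higher and 7 lower, with the macrophage covariate 0 and 0, and with the fibroblast covariate 1 and 1.

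Hlf, the third PAR bZIP gene beside Dbp and Tef, fell furthest, from 4.45 ± 1.02 to 1.38 ± 0.471 CPM with no overlap. Its log2 fold change was -1.67 ± 0.23 (edgeR adjusted p = 1.03e-05), and it stayed lower under endocrine granule scaling (-1.05). Btrc, encoding the F-box protein that marks phosphorylated PER for degradation, fell from 101 ± 9.51 to 51.1 ± 4.44 CPM. That was a log2 fold change of -0.98 ± 0.07 (edgeR adjusted p = 2.59e-08), with -0.39 under endocrine granule scaling. Fbxl21, an F-box gene for CRY turnover, was lower by the same test at -0.94 and -0.37 under these scalings.

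The DEC genes, which encode basic helix-loop-helix repressors at E-boxes, moved in opposite directions. Bhlhe40 (DEC1) rose from 11.2 ± 1.78 to 39.6 ± 18.2 CPM, a log2 fold change of 1.82 ± 0.27 (edgeR adjusted p = 1.90e-05), and it was called higher under all 3 scalings. Bhlhe41 (DEC2) fell from 45.9 ± 7.10 to 27.99 ± 3.44 CPM, by -0.71 ± 0.10 in log2 with no overlap, though endocrine granule scaling left it at -0.10 without a call. Cry2, the paralog of Cry1, fell from 76.4 ± 2.56 to 55.8 ± 9.28 CPM (-0.45 ± 0.11, edgeR adjusted p = 0.00145), but stood at 0.11 under endocrine granule scaling.

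Among the kinases that act on PER, Csnk1e was called higher at 0.57 ± 0.09, with -0.07 by library totals. Csnk1d was called lower at -0.19 ± 0.07, but not without Sham replicate 25, 26 or 27, lower-glucose replicate 14 or 16 or higher-glucose replicate 15, and turned to 0.41 under endocrine granule scaling. Usp2, a deubiquitinase gene under clock control, was called higher at 2.39 ± 0.58, and its Px libraries spread from 1.88 to 18.7 CPM. With the acinar covariate Usp2 was at -0.49 (edgeR adjusted p = 0.660). Timeless (1.23 ± 0.22) and Arntl2, a paralog of Arntl at about 1 CPM in Sham (1.15 ± 0.36), were called higher, but not with library totals. Rora and Fbxw11 were called lower, at -0.43 and -0.26, and stood above 0 under endocrine granule scaling. Npas2, Nfil3 and Ciart did not pass the test under TMM. Endocrine granule scaling called Npas2 (0.77, edgeR adjusted p = 0.0289) and Nfil3 (1.03, adjusted p = 0.000808) higher. Library totals called Ciart lower (-1.22, edgeR adjusted p = 0.00148).

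**Figure D3:**
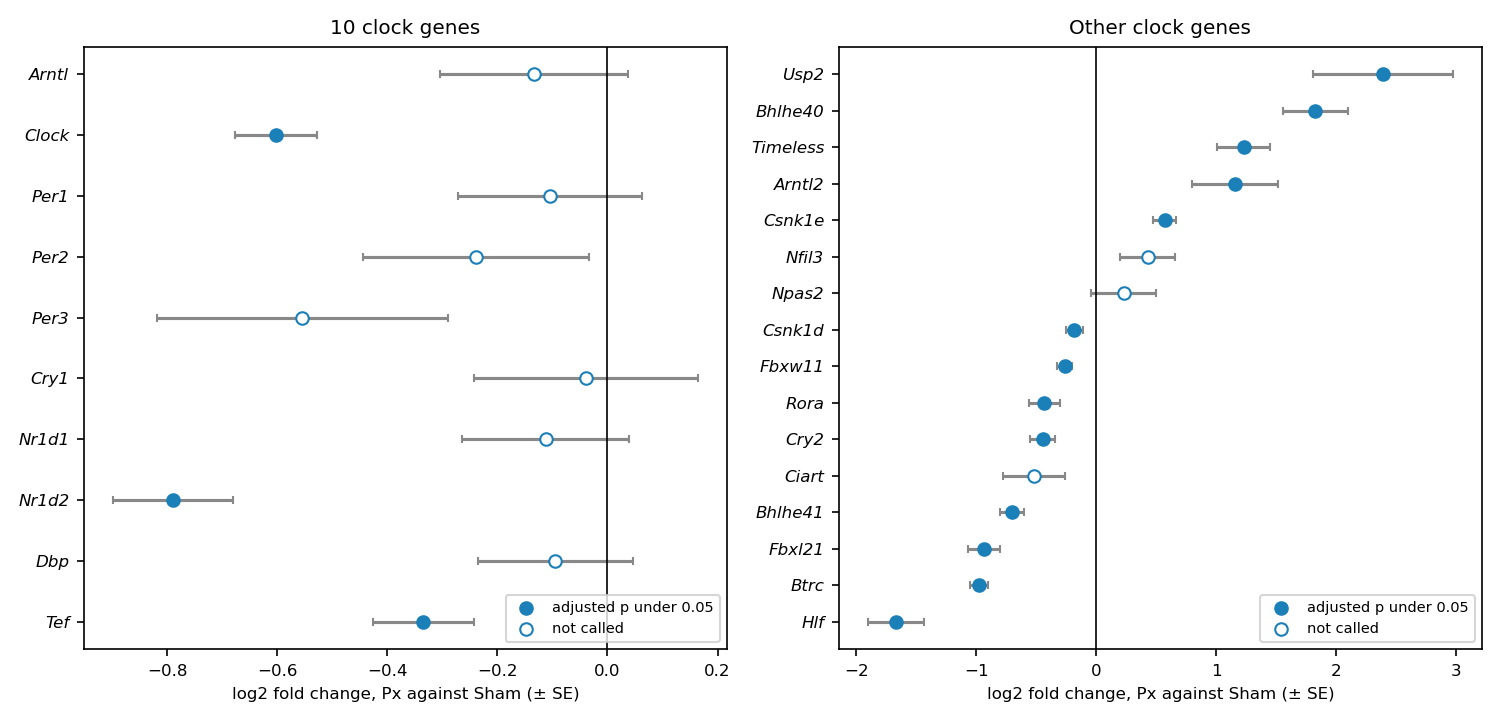
Log2 fold change of Px against Sham with its SE for the 10 clock genes (left) and 16 other clock genes (right), under TMM scaling; filled points passed an adjusted p of 0.05. On the left 3 filled points, Clock, Nr1d2 and Tef, lie below 0, and Tef moves above 0 when libraries are scaled to endocrine granule genes; on the right 8 filled points lie below 0 and 5 above, a split that other scalings change.

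Both Px groups were then set against the same 5 Sham libraries, so that these comparisons share their controls. In lower-glucose Px, 3 of the 10 clock genes were called, all lower, where 63.5% of 15661 genes were called and 30% called lower. They were Clock at -0.58 ± 0.08 (edgeR adjusted p = 9.71e-06), Nr1d2 at -0.80 ± 0.12 (adjusted p = 2.73e-05) and Tef at -0.38 ± 0.10 (adjusted p = 0.00238). In higher-glucose Px, 3 were called, again all lower, where 57.7% of genes were called and 25.5% called lower. Clock was at -0.67 ± 0.10 (edgeR adjusted p = 4.19e-05) and Nr1d2 at -0.79 ± 0.15 (adjusted p = 0.000424). Per3 was the third, at -0.92 ± 0.36 (edgeR adjusted p = 0.0356), and its libraries overlapped those of Sham. Tef in this group was at -0.25 ± 0.12 (edgeR adjusted p = 0.0914), called without higher-glucose replicate 13 (-0.35, adjusted p = 0.0394) and with library totals (-1.26). Leaving out either of 2 libraries of this Px group, number 15 (-0.77, edgeR adjusted p = 0.137) or number 19 (-0.89, adjusted p = 0.0958), ended the Per3 call. So did leaving out Sham replicate 23 (-0.66, edgeR adjusted p = 0.0991) or 24 (-0.78, adjusted p = 0.0787). The Per3 call was also lost with limma voom (-0.81, adjusted p = 0.0721) and with endocrine granule scaling (-0.57, adjusted p = 0.256). It was lost too with the acinar (0.26), macrophage (1.07) and fibroblast (-0.68) covariates. In this group Clock and Nr1d2 were called with the acinar covariate and not with the macrophage or the fibroblast covariate.

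The direct comparison of higher-glucose with lower-glucose Px called 0 of the 10 genes by edgeR, DESeq2 and limma voom, and 0 passed 0.05 before adjustment in edgeR. Of all genes 22.8% passed 0.05 before adjustment, and 4.88% of all genes were called. Fold changes ran from -0.50 ± 0.34 for Per3 (edgeR adjusted p = 0.387) to 0.45 ± 0.23 for Cry1 (adjusted p = 0.257), the latter turning to -0.04 with library totals. With 3 libraries on one side, these errors leave room for sizeable differences in either direction. None of the 18 other clock genes was called either, while 5 of them, and 22.8% of all genes, passed 0.05 before adjustment. Summed fibroblast markers ranged from 3225 to 7290 CPM in lower-glucose Px and from 1467 to 2521 CPM in higher-glucose Px. Summed duct markers ranged from 407 to 531 CPM and from 311 to 366 CPM. Neither pair of ranges overlapped. The exact permutation test had 120 splits, and its smallest p of 0.00833 becomes 0.0667 when 1 list of 8 alone reaches it, so that test could not call 1 list on its own.

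Within the 7 lower-glucose Px rats, a slope on log2 glucose asked whether clock genes followed glucose below the gap. By edgeR, 0 of the 10 genes and 0% of 15695 genes passed the adjusted threshold. Before adjustment 3 of the 10 passed 0.05, as did 9.12% of all genes. Per3 had a slope of 0.92 ± 0.37 and Per1 of 0.73 ± 0.29 in log2 level for each doubling of glucose (adjusted p = 0.519 for both), and Cry1 had a slope of -0.76 ± 0.31 (adjusted p = 0.525). Over all 10 Px rats the slope of Per3 was -0.18 and that of Cry1 0.17, the opposite signs.

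Differences between 2 genes inside 1 library do not depend on how libraries are scaled. The level of Arntl minus that of Dbp, in log2 CPM, was -0.82, -0.03, -0.62, -0.54 and -0.11 in Sham. In lower-glucose Px it ran from -1.09 in replicate 14 to 0.24 in replicate 16 with a median of -0.39, and in higher-glucose Px it was -1.67, 0.51 and -0.45. The means were -0.42 ± 0.34 in Sham (SD, n = 5) and -0.48 ± 0.63 in Px (n = 10), and the Px libraries reached further on both sides. Arntl minus Per2 behaved the same way, from -2.36 to -1.14 in Sham and from -3.06 to -0.38 in Px. Higher-glucose replicates 13 and 15, with glucose labels of 416 and 464, were at opposite ends of the Arntl minus Dbp difference. Whether the spread differed between the groups was not tested.

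Genes whose levels followed Arntl from library to library were ranked by Pearson's r of the log2 CPM deviations from the means of the 3 groups. The ranking took in 9734 genes with a mean of at least 5 CPM over the 15 libraries. All genes of a library share its depth and scaling, which differ between libraries, so the ranking is given as a description. The highest were Ppcdc (r = 0.85), an enzyme gene of coenzyme A synthesis, and Npas2 (r = 0.85), the paralog of Clock that also pairs with BMAL1. H3f3a (0.80), Dpm1 (0.76) and Eri3 (0.76) came next. The lowest were Tigar (-0.85), Snx11 (-0.83), Tti2 (-0.80), Kbtbd8 (-0.75) and, 5th from the end, Tef (-0.75). Among the members, Dbp at -0.69 was 9th from the end and Per2 at -0.56 was 59th, while Nr1d1 at 0.49 lay on the side of Arntl. Clock (0.02), Per1 (0.05) and Cry1 (-0.02) did not follow Arntl in either direction. Per2 and Per3 followed each other at r = 0.85, and Dbp and Tef at r = 0.64.

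The likeness of Npas2 to Arntl was 0.74 to 0.90 with 1 library left out, 0.92 with library totals and 0.88 with endocrine granule scaling. It was 0.90 in the 10 Px libraries alone and 0.60, rank 915 of 9734, in the 5 Sham libraries alone. Those of Tef and Dbp depended on the scaling: with library totals they were 0.35 and 0.16, though these still ranked 733rd and 314th from the end. With endocrine granule scaling Tef was at -0.12, Dbp at -0.14 and Per2 at -0.08. Under TMM without higher-glucose replicate 13 they were closer to 0, at -0.64 for Tef, -0.50 for Dbp and -0.29 for Per2, and Nr1d1 was at 0.19. In the 5 Sham libraries alone Tef was at -0.65, Dbp at -0.23, Per2 at 0.17 and Nr1d1 at -0.33, against -0.80, -0.78, -0.77 and 0.79 in the 10 Px libraries alone. For Dbp the most alike genes were Tigar (0.72), Arsa (0.71), Trim11 (0.69), Zmat5 (0.68) and Srp14 (0.68). Among those least alike were Rin2 (-0.87), the RNA-binding repressor gene Pum2 (-0.81), the corepressor gene Nrip1 (-0.80) and Gpbp1 (-0.79).

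**Figure D4:**
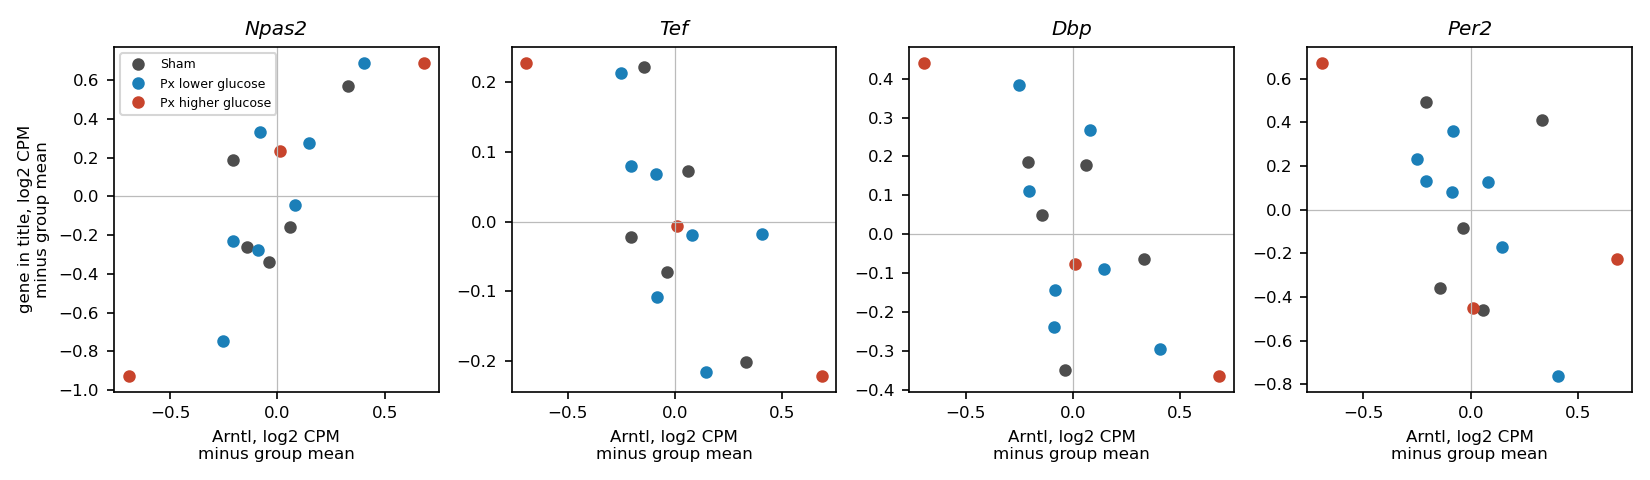
Deviation of Npas2, Tef, Dbp and Per2 from their group means (vertical axis, log2 CPM under TMM) against that of Arntl (horizontal axis) in 15 libraries, coloured by group. Npas2 rises with Arntl (r = 0.85) and Tef (-0.75), Dbp (-0.69) and Per2 (-0.56) fall, with higher-glucose replicates 13 and 15 at the far left and far right; with library totals the signs of the last 3 turn positive.

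As a test, Arntl was correlated with the 9 other genes over the 7 lower-glucose Px libraries, the one cluster with at least 6. None of the 9 pairs passed after adjustment. The lowest p was that of Per2, with Pearson's r = -0.87 (exact permutation p = 0.0145, adjusted p = 0.130) and Spearman's rho = -0.71 (exact permutation p = 0.0881, adjusted p = 0.360). Without replicates 8 and 16, the 2 libraries farthest from the median of Arntl, r was -0.18, over a narrower range of Arntl. With only replicate 8 left out r was -0.87, and with only replicate 16 left out it was -0.63. For Tef r was -0.57 and rho -0.75, with an exact permutation p of 0.183 and 0.0663 before adjustment. Over all 10 Px libraries, which mix both glucose groups, Tef at r = -0.82 and Nr1d1 at r = 0.75 passed (permutation test, adjusted p = 0.0388 for both; Spearman's rho -0.84 and 0.70). By rho Tef passed (adjusted p = 0.0329) and Nr1d1 did not (adjusted p = 0.105). Without higher-glucose replicates 13 and 15 the values of r were -0.61 and 0.42.

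Genes known to respond to the clock were read from a list of 8. In Px, 3 were called higher and 3 lower by edgeR, where 34.5% of all genes were called higher and 30.2% lower. The counts were 1 and 5 with library totals and 4 and 0 with endocrine granule scaling. With the acinar, macrophage and fibroblast covariates they were 2 and 2, 0 and 0, and 1 and 0. Cdkn1a, the p21 cell cycle inhibitor, rose by 1.79 ± 0.25 in log2 and was called higher under each of these scalings. Klf10 rose by 0.87 ± 0.13 and stood at 0.19 with library totals. Por, the electron donor of cytochrome P450 enzymes, fell by 0.82 ± 0.12, and Lpin1, a phosphatidate phosphatase, by 0.61 ± 0.15, and neither was called with endocrine granule scaling. Klf10 and Lpin1 were also the clock output genes called between both Px groups, higher in higher-glucose Px by 0.46 ± 0.11 (edgeR adjusted p = 0.0221) and 0.56 ± 0.14 (adjusted p = 0.0293), in a comparison that called 4.88% of all genes. Without higher-glucose replicate 13 or 19 neither was called, Klf10 also not without replicate 15 and Lpin1 not without lower-glucose replicate 2. Neither was called with library totals (-0.04 and 0.01) or endocrine granule scaling (0.24 and 0.32). Of the 8 granule genes used for that scaling, 3 were called higher in higher-glucose than in lower-glucose Px under TMM. With the fibroblast covariate 0 output genes were called between both Px groups, where 28 of all genes were called higher and 2 lower. With the acinar and the macrophage covariates 2 output genes were called.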

How the data were processed

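RNA was measured in 15 islet libraries (5 Sham, 10 Px). Per the labels, islet polyA RNA was extracted with miRNeasy and made into directional libraries, and the submitters' processing notes name FastQC, Subread, featureCounts and limma, without versions, genome build or strand setting. The values are read counts per gene as the authors deposited them, with exon lengths per the file headers and exon positions of an unstated build, used here for the overlap of Nr1d1 and Thra. Counts were tested with edgeR 4.0.16 in R 4.3.3: filterByExpr (minimum count 10, minimum total 15), TMM scaling, quasi-likelihood test, two-sided, Benjamini-Hochberg adjustment over all genes tested, threshold 0.05. Standard errors are the log2 fold change divided by the square root of F. CPM was computed with TMM factors, and log2 CPM with a prior count of 2. All Px libraries were set against Sham in a model of 2 groups. A model of 3 groups gave the glucose comparisons, and the 7 lower-glucose Px libraries alone gave the slope. Groups and glucose came from the labels. Nothing says how samples were batched, so p-values measure the spread between these libraries. The scripts were tested on simulated data. Alternatives were DESeq2 1.42.0, limma 3.58.1 voom, other scalings, no filter, marker covariates and leaving out each library. The 10 genes, the lists and the rule for named genes (all members, the listed clock, output, glucocorticoid and immediate early genes, and the 5 genes most and least like Arntl and Dbp) were chosen with earlier results of these data known. Genes with only a locus identifier were left out of the likeness ranking. Results for some listed genes are not reported here.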

Additional observations from a re-analysis of the deposited data

Results flagged for a closer look

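Of the 20 groups of 5 or 7 libraries examined for the 10 clock genes, 1 held a library far from the others, and chance alone marks about 1 group in 20. The level of Nr1d2 in lower-glucose Px replicate 8 was 40.9 CPM, the nearest of the other 6 libraries of that group was at 53.5 CPM, and the gap was 0.600 of the whole range of the group. The fall of Nr1d2 in Px was called with and without that library.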

How the results depend on the processing

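No paired analysis was possible because Sham and Px libraries share no replicate number. The number of clock genes called stayed at 2 or 3 in each comparison with Sham under DESeq2 size factors, the DESeq2 test, limma voom, no filter and the acinar covariate. With library totals it was 10 in Px, 10 in lower-glucose Px and 10 in higher-glucose Px, all lower. With endocrine granule scaling it was 3, 3 and 1, all higher, with Clock, Nr1d2 and Tef not among them. Of all 15199 genes in Px, library totals called 7950 lower and endocrine granule scaling called 9175 higher. Of 15661 genes, library totals called 7134 lower in lower-glucose Px and 9074 lower in higher-glucose Px. Endocrine granule scaling called 10025 and 6986 of them higher. With the macrophage covariate the number of clock genes called was 0, 0 and 0, and with the fibroblast covariate 0, 0 and 0. The macrophage fit called 0 of all genes in Px against Sham, and macrophage markers differed between these groups. Leaving out 1 library gave 3 to 4 calls in Px, 3 in lower-glucose Px and 2 to 4 in higher-glucose Px.

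Signs turned for these log2 fold changes of Px against Sham. Under endocrine granule scaling they were Arntl 0.46, Per1 0.48, Per2 0.31, Cry1 0.57, Nr1d1 0.48, Dbp 0.49 and Tef 0.25. With the acinar covariate they were Per2 0.16 and Per3 0.58, with the macrophage covariate Per2 0.75, Per3 1.17, Nr1d1 0.31 and Nr1d2 0.61, and with the fibroblast covariate Per2 0.063, Cry1 1.40 and Tef 0.21. With 1 library left out Per1 ran from -0.18 to 0.056, Cry1 from -0.13 to 0.042 and Nr1d1 from -0.21 to 0.00023. In lower-glucose Px they were, under endocrine granule scaling, Clock 0.073 and Tef 0.28, with the macrophage covariate Clock 0.087 and Nr1d2 0.68, and with the fibroblast covariate Nr1d2 0.26 and Tef 0.29. In higher-glucose Px they were Tef 0.18 with endocrine granule scaling, Per3 0.26 with the acinar covariate, Nr1d2 0.61 and Per3 1.07 with the macrophage covariate, and Nr1d2 0.0030 and Tef 0.25 with the fibroblast covariate. Between both Px groups Cry1 was -0.044 with library totals, and over all 10 Px rats the slopes of Per3 and Cry1 were -0.18 and 0.17. Apart from the scalings, whose construction shifts all genes, the cause of these sign changes was not tested. Macrophage and fibroblast markers did not overlap between Px and Sham, so signs turned with those covariates cannot separate marker level from surgery.

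Correlations of Arntl with the other 9 genes passed for 2 pairs with library totals, 2 pairs over all 10 Px libraries and 0 to 1 pairs with 1 library left out. Likeness to Arntl turned positive with library totals for Tef (0.35), Dbp (0.16) and Per2 (0.20), and for Per2 in the 5 Sham libraries alone (0.17); these settings were chosen after seeing the data. Each of the 10 genes had at least 132 reads in every library, and higher-glucose Px held only 3 libraries. Which of depth, group size, scaling and cell mixture limited the results most was not tested.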

Other observations

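Genes that respond to glucocorticoids, hormones that can reset clocks in peripheral tissues, were read from a list of 5. Tsc22d3 and Klf9 of this list are also among the clock output genes, so the higher call of Tsc22d3 is counted in both lists. In Px, 3 of the 5 were called higher and 1 lower by edgeR, where 64.7% of all genes were called. The counts were 1 and 2 with library totals and 4 and 0 with endocrine granule scaling. Zbtb16, encoding a zinc finger repressor, was higher by 2.87 ± 0.56 in log2 (edgeR adjusted p = 0.000275) and was called higher under each of these scalings. Sgk1, a kinase gene, was higher by 0.73 ± 0.13, with 0.11 under library totals, and Fkbp5, an inhibitor of the glucocorticoid receptor, was lower at -0.27 ± 0.10, with 0.34 under endocrine granule scaling. The Fkbp5 call was lost without lower-glucose replicate 10 or 16 or Sham replicate 25, 26 or 27. With the acinar or the macrophage score as a covariate 0 of the 5 were called, and with the fibroblast score 1, higher.

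Immediate early genes, which answer within minutes to signals that can also induce Per1, were read from a list of 10. In Px, 8 were called higher and 1 lower by edgeR, also in all 15 fits that left out 1 library, where 34.5% of all genes were called higher and 30.2% lower. The counts were 8 and 2 with library totals and 9 and 0 with endocrine granule scaling. With the acinar covariate they were 5 and 0, with the macrophage covariate 0 and 0, and with the fibroblast covariate 4 and 0. Jun, a subunit of the AP-1 transcription factor, was higher by 2.28 ± 0.13 in log2 (edgeR adjusted p = 3.59e-09) with no overlap, and Atf3, a stress-induced transcription factor gene, by 3.60 ± 0.34 (adjusted p = 2.31e-07). Nr4a1, encoding an orphan nuclear receptor, was lower at -1.11 ± 0.36 (edgeR adjusted p = 0.0120). Per1, a member of the clock described above, was not called in the same fit (-0.11 ± 0.17, edgeR adjusted p = 0.596).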
